A study of Mus musculus with 8 samples.

Results

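The 35 interferon-stimulated genes described here are a listed set, found by mouse Ensembl identifier among the 52636 genes of each table, and all 35 were found. They were measured by RNA-seq in articular cartilage of wild-type (WT) and Oscar-/- male C57BL/6 mice, labelled as 10 weeks old. Oscar encodes the osteoclast-associated receptor, a collagen receptor of the immunoglobulin family. Knees had sham surgery or destabilization of the medial meniscus (DMM), an operation that leads to osteoarthritis, and were taken 2 or 4 weeks later. The 8 libraries hold 1 library for each of the 8 conditions: sham or DMM surgery, in WT or Oscar-/- mice, at 2 or 4 weeks. Each library was made from the combined RNA of 10 cartilages, so a difference between 2 libraries has no replicate check. Of the 35 genes, 34 were among the 12538 protein-coding genes with a TPM (a share of the transcripts of the library, corrected for their length) greater than 1 in at least 1 library, which were tested. Mx2 was left out of the tests because the annotation classes it as a polymorphic pseudogene.

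Interferons are secreted proteins that cells release when they sense viral or misplaced nucleic acid. Type I and type III interferons bind receptors that activate the kinases JAK1 and TYK2. Downstream of them a complex of transcription factors called ISGF3, which contains STAT2 and IRF9, binds an element of repeated GAAA letters in promoters and switches on the genes described here. Their products sense and degrade viral RNA, block translation and viral budding, and limit further signaling. Cells in healthy tissue also express these genes at a low level, and macrophages, neutrophils and plasmacytoid dendritic cells express many of them strongly.

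The libraries held 13189181 to 18533609 expected counts, an expected count being an estimate of the reads of a gene. Oscar was at 42 to 118 expected counts in the 4 WT libraries and at 0 in the 4 Oscar-/- libraries, which allows up to 3 counts each. The tissue label was checked against marker lists. The chondrocyte genes Col2a1 and Acan were present at 59.5 to 209 TPM and 19.3 to 68.9 TPM. A list of 12 neutrophil genes summed to 67881 to 109960 TPM, and the 4 hemoglobin genes took 26.5% to 37.7% of all TPM, so markers of blood and marrow cells were abundant as well. The hemoglobin share was highest in the WT sham library of 2 weeks (37.7%) and the Oscar-/- DMM library of 4 weeks (37.0%), and a high share lowers the TPM of every other gene. For that reason differences were tested on counts scaled with TMM (trimmed mean of M-values), which sets most genes equal between libraries, and TPM was used for levels. In such bulk samples a lower number of expressing cells and less RNA per cell cannot be told apart. The file names give sequencing lane 5 for the 2-week libraries, lane 3 for WT at 4 weeks and lane 1 for Oscar-/- at 4 weeks.

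Sequence near the gene start is shown first, because the genes of this family are known for the element that ISGF3 binds there. RefSeq promoter windows on GRCm38.p6, from 250 bases before to 50 bases after the start, were at hand for 25 of the 35 members. The letters GAAANNGAAA, the core of the interferon-stimulated response element, were found on either strand in 11 of these 25 members (44%). Among all 27025 genes with a window the share was 3.99%. Overlapping matches were allowed, and Isg15 held 3 of them in a row. The windows below show 1 match upstream of the start for each of 8 members whose levels are described later. Each is read 5′ to 3′ on the strand of the gene, with 10 bases on each side and the match in capitals. TTTCNNTTTC is the same element on the opposite strand.
Isg15, chr4:156200871-156200900, minus strand: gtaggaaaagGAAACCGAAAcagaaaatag
Oas1a, chr5:120907526-120907555, minus strand: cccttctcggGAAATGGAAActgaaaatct
Oas3, chr5:120777715-120777744, minus strand: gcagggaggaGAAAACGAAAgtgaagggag
Bst2, chr8:71537583-71537612, minus strand: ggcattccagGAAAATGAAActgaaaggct
Stat2, chr10:128270266-128270295, plus strand: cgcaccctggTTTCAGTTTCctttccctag
Rsad2, chr12:26456553-26456582, minus strand: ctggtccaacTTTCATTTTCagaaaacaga
Ifit3, chr19:34583397-34583426, plus strand: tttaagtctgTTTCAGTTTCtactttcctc
Ifit1, chr19:34640794-34640823, plus strand: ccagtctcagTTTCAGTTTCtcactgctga
The other 3 members with a match, Ifih1, Ddx58 and Eif2ak2, held it after the start. A match is a description of letters and not of a bound site. No match in a window says only that these letters are not in those 300 bases, and the matches were not used for any comparison.

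All 35 genes were read in all 8 libraries. The sum of their levels was 524 TPM in sham-operated and 576 TPM in DMM-operated WT joints, and 582 and 672 TPM in the Oscar-/- counterparts at 2 weeks. At 4 weeks it was 733, 775, 725 and 641 TPM in the same order. Of the 4 sums at 4 weeks 3 lay above all sums at 2 weeks. The sum of Oscar-/- DMM at 4 weeks lay below that of Oscar-/- DMM at 2 weeks. Most genes were higher at 4 weeks on TPM. Matched by genotype and surgery, the share of all genes tested that were higher ranged from 66.05% to 90.3%. Higher sums alone therefore do not set the members apart. With TMM scaling the median edgeR log2 fold change for week was 0.013 for the members and -0.020 for all genes. The median member had a median level of 9.05 TPM over the libraries, and the median of all genes tested was 9.08 TPM. The 5 genes Isg15, Ifi27, Rsad2, Sp100 and Bst2 had medians above 40 TPM and held 53.6% to 60.7% of the sum. A further 11 had medians from 10 to 40 TPM, 9 from 5 to 10 TPM, 9 from 1 to 5 TPM, and Ifi44 had one below 1 TPM. The spread between libraries was small: on the TMM scale the highest library was less than 2-fold above the lowest for 32 of the 34 genes tested, Oas2 and Ifi44 being the exceptions. The median SD of the log2 level over the 8 libraries was 0.15 for the members and 0.17 for all genes tested.

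**Figure D1:**
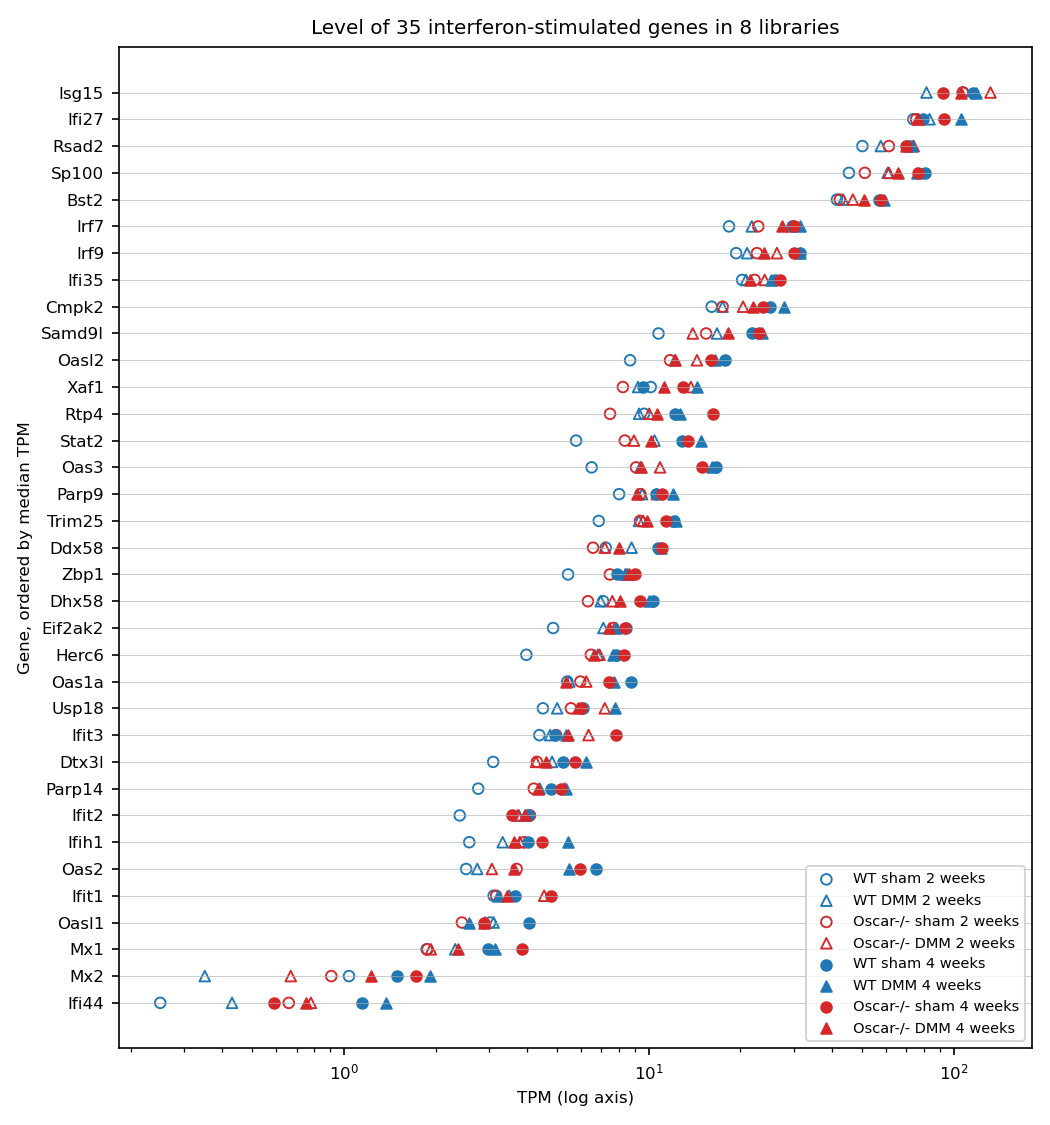
Level of each of the 35 genes in each of the 8 libraries, in TPM on a log axis, with genes ordered by their median. Color gives the genotype, shape the surgery and filling the week. Isg15 is at the top with 81.5 to 132 TPM and Ifi44 at the bottom with 0.25 to 1.38 TPM. WT sham at 2 weeks is the lowest library for 27 of the 35 genes on this scale, and for 13 with TMM scaling. The share of all genes with their lowest library there was not taken. On TPM 8.09% of all genes tested lie above their own mean over the libraries in WT sham at 2 weeks.

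The interferons themselves were barely read. Of 21 ligand genes, from the type I genes Ifnb1 and the Ifna family to Ifng and the type III genes Ifnl2 and Ifnl3, 17 had 0 counts in all 8 libraries, which allows up to 3 counts in each. The ligand counts of a library added up to between 0 and 5. Ifng, the type II interferon, had 4 counts in WT DMM at 4 weeks and 1 or 0 in every other library. The 6 receptor genes were all expressed. Ifnar1, a chain of the type I receptor, was at 11.1 to 18.7 TPM. None of the 6 passed the test for surgery, genotype or interaction. Ifnlr1, the specific chain of the type III receptor, was higher at 4 weeks by 0.58 ± 0.12 on the log2 scale (SE, edgeR adjusted p = 0.019).

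The transcription factors and feedback genes comprised Irf7, Irf9, Stat2, Usp18, Isg15, Herc6 and Trim25, and their sum ranged from 156 to 224 TPM. Isg15 encodes a ubiquitin-like protein that is attached to other proteins and is also secreted. Its level at 2 weeks was 108 TPM in sham-operated and 81.5 TPM in DMM-operated WT joints, and 107 and 132 TPM in the Oscar-/- counterparts. At 4 weeks it was 116, 119, 92.0 and 106 TPM in the same order. DMM thus stood below sham in WT and above sham in Oscar-/- at 2 weeks, and the 4 libraries at 4 weeks lay between these extremes. Usp18, the protease that removes ISG15 and blunts the type I receptor, was at 4.50 TPM in sham-operated and 5.01 TPM in DMM-operated WT joints, and 5.56 and 7.18 TPM in the Oscar-/- counterparts at 2 weeks. Its levels at 4 weeks were 6.10, 7.78, 6.01 and 5.87 TPM. Irf7, the factor that amplifies type I interferon production, spanned 18.4 to 31.3 TPM. Irf9 (19.4 to 31.4 TPM) and Stat2 encode components of ISGF3. For Stat2 the values at 2 weeks were 5.78 and 10.45 TPM in WT joints (sham, then DMM) and 8.35 and 8.95 TPM in Oscar-/- joints. At 4 weeks they were 12.9, 14.8, 13.5 and 10.2 TPM, of which the lowest lay just under WT DMM of 2 weeks. Trim25, a ubiquitin ligase that helps the sensor RIG-I to signal, spanned 6.86 to 12.3 TPM. Herc6, the mouse ligase that attaches ISG15, was at 3.97 TPM in sham-operated and 6.81 TPM in DMM-operated WT joints, and 6.46 and 6.90 TPM in the Oscar-/- counterparts at 2 weeks. At 4 weeks Herc6 was at 7.83, 7.64, 8.27 and 6.62 TPM, so that WT sham at 2 weeks stood alone at the low end. On the TMM scale the highest Herc6 library was 1.27-fold above the lowest.

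The sensors were expressed at a lower level, with a sum of 27.2 to 42.6 TPM. Ddx58 encodes RIG-I, which binds the ends of viral RNA, and spanned 6.57 to 11.1 TPM. Ifih1 encodes MDA5, which binds long double-stranded RNA. Ifih1 was at 2.58 TPM in sham-operated and 3.32 TPM in DMM-operated WT joints, and 3.91 and 3.78 TPM in the Oscar-/- counterparts at 2 weeks. Its levels at 4 weeks were 4.03, 5.43, 4.46 and 3.63 TPM, with WT DMM the highest of the 8. Dhx58 encodes LGP2, a relative of both that lacks their signaling domain, and spanned 6.32 to 10.4 TPM. Zbp1, a sensor of Z-form nucleic acid, spanned 5.44 to 9.05 TPM and Eif2ak2, which encodes the kinase PKR that stops translation, spanned 4.86 to 8.40 TPM. None of these 5 sensors passed any of the 4 tests.

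The oligoadenylate synthetases make a small messenger that activates the nuclease RNase L, and the 2 OAS-like proteins are relatives of them. The 5 genes lie on chromosome 5 and their sum ranged from 26.1 to 53.9 TPM. Oas2 (ENSMUSG00000032690), at 120730333 to 120749853 of GRCm38 chromosome 5, minus strand, was at 2.52 TPM in sham-operated and 2.74 TPM in DMM-operated WT joints, and 3.69 and 3.06 TPM in the Oscar-/- counterparts at 2 weeks. At 4 weeks it was at 6.70, 5.46, 5.97 and 3.63 TPM. Of the 4 later libraries 3 were above all earlier ones, and Oscar-/- DMM at 4 weeks was just below Oscar-/- sham at 2 weeks, so the weeks overlapped. Oas3 lies beside Oas2 and reached 16.6 TPM in WT sham at 4 weeks, its highest library, while WT sham at 2 weeks was its lowest. Oasl2 spanned 8.69 to 17.8 TPM between the same libraries. Oas1a (5.35 to 8.75 TPM) and Oasl1 (2.44 to 4.05 TPM) were lower. Oas1a has several near-identical neighbours, so its share of the reads is uncertain.

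The effectors were led by Rsad2, which encodes viperin, an enzyme that makes a chain-terminating nucleotide. Rsad2 was at 50.2 TPM in sham-operated and 57.7 TPM in DMM-operated WT joints, and 61.4 and 74.0 TPM in the Oscar-/- counterparts at 2 weeks. The later libraries were at 71.5, 72.9, 69.7 and 69.7 TPM. Cmpk2, the mitochondrial nucleotide kinase whose gene lies next to Rsad2 on chromosome 12, spanned 16.1 to 27.9 TPM. Bst2 encodes tetherin, which holds budding virus at the cell surface and also marks plasmacytoid dendritic cells, and spanned 41.4 to 59.3 TPM. The IFIT genes, whose products bind foreign RNA ends, were much lower. Ifit1 spanned 3.10 to 4.78 TPM, Ifit2 2.40 to 4.08 TPM and Ifit3 4.38 to 7.84 TPM. The dynamin-like GTPase gene Mx1 was at 1.87 TPM in sham-operated and 2.32 TPM in DMM-operated WT joints, and 1.88 and 1.93 TPM in the Oscar-/- counterparts at 2 weeks. At 4 weeks Mx1 was at 2.98, 3.14, 3.84 and 2.37 TPM, all above the 4 earlier libraries, as for 27.9% of all genes tested. Mx2 had 16.0 to 35.3 expected counts per library, or 0.35 to 1.92 TPM, and too few reads to rank its libraries. Ifit1, Ifit3, Mx1 and Mx2 have close copies and fractional counts, so their reads could be split between genes.

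Of the other 10 members, Ifi27, which encodes a small mitochondrial membrane protein, spanned 73.8 to 106 TPM and varied little, the highest library being 1.21-fold above the lowest on the TMM scale. Sp100, a component of PML nuclear bodies, spanned 45.4 to 80.5 TPM. Samd9l, which restrains the growth of blood-forming cells, was at 10.8 TPM in sham-operated and 16.8 TPM in DMM-operated WT joints, and 15.4 and 14.0 TPM in the Oscar-/- counterparts at 2 weeks. At 4 weeks Samd9l was at 21.8, 23.4, 22.97 and 18.2 TPM, all above the 4 earlier libraries. On TPM this held for 27.9% of all genes tested. Dtx3l, a ubiquitin ligase that works with PARP9, was at 3.09 TPM in sham-operated and 4.82 TPM in DMM-operated WT joints, and 4.30 and 4.27 TPM in the Oscar-/- counterparts at 2 weeks. Its levels at 4 weeks were 5.25, 6.23, 5.74 and 4.59 TPM. Parp9 (8.00 to 12.0 TPM) and Parp14 (2.76 to 5.37 TPM), both ADP-ribosylation genes, lie beside it on chromosome 16, and the annotated ends of Dtx3l and Parp9 overlap on opposite strands. Ifi35 spanned 20.2 to 27.0 TPM, Xaf1, whose product binds an inhibitor of apoptosis, 8.23 to 14.4 TPM, and the receptor-transport gene Rtp4 7.47 to 16.2 TPM. Ifi44 was the lowest, with 16.0 to 37.0 expected counts per library.

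Surgery was compared first, since the study asked what DMM changes in cartilage. No member passed the test for DMM. With week, surgery and genotype as additive terms in edgeR's quasi-likelihood test, 0 of 34 members passed an adjusted p of 0.05 for DMM against sham, and 0% of all 12538 genes did. At an unadjusted p under 0.05 the counts were 0 members and 805 genes (6.42%). DESeq2 also called 0 members (0.582% of all genes) and limma on log2(TPM + 1) called 0 (0.167% of all genes). The estimates ran from -0.20 ± 0.14 for Oas2 to 0.28 ± 0.26 for Ifi44 (log2 fold change ± SE), with a median of 0.0062 for the members and 0.00021 for all genes. The SE of the members had a median of 0.10, which limits the changes these libraries can show.

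Genotype was compared next. No member passed the test of Oscar-/- against WT with edgeR, with which 0.0479% of all genes passed. DESeq2 (0.0798% of all genes) and limma (0.0479% of all genes) called 0 members as well. At an unadjusted p under 0.05 edgeR and DESeq2 each had 1 member, Ifit3, beside 2.69% and 1.54% of all genes. Limma had 0 members, beside 2.11% of all genes. Ifit3 was estimated at 0.38 ± 0.15 higher in Oscar-/- on the log2 scale, with an edgeR adjusted p of 0.9997. Its TPM was above WT of the same surgery and week in all 4 pairs of libraries. At 2 weeks it was 4.97 against 4.38 TPM (sham) and 6.35 against 4.75 TPM (DMM). At 4 weeks it was 7.84 against 4.92 TPM and 5.43 against 5.36 TPM, the last pair being nearly equal. Of all genes 82.8%, 29.55%, 41.5% and 12.2% were above WT in these pairs, in the same order. Ifit3 was picked after its values were seen. On the TMM scale it was above WT in the other 3 pairs but not after sham surgery at 2 weeks. There Ifit3 was at 9.65 CPM in Oscar-/- and 10.3 CPM in WT. The median estimate was 0.076 for the members and 0.0096 for all genes, and 29 of the 34 were above 0 where 54.0% of all genes were. With limma on log2(TPM + 1) the medians were 0.016 and -0.034, and 18 of the 34 were above 0 where 36.3% of all genes were. Genotype goes with the lane at 4 weeks. Within lane 5, at 2 weeks, the median log2(Oscar-/-/WT) of the members on the TMM scale was -0.0040 after sham surgery and 0.29 after DMM, beside 0.0061 and -0.00044 for all genes. At 4 weeks, where genotype and lane cannot be told apart, it was 0.068 after sham surgery and -0.049 after DMM, beside 0.016 and -0.0083 for all genes, so the sign after DMM differed between the weeks.

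The weeks differed more. Oas2 was the 1 of 34 members that passed, higher at 4 weeks by 0.60 ± 0.14 on the log2 scale (edgeR adjusted p = 0.036), where 7.94% of all genes passed. The share of members was below that of all genes. Samd9l was estimated at 0.31 ± 0.08 higher (adjusted p = 0.053), Mx1 at 0.37 ± 0.14 higher (adjusted p = 0.13) and Stat2 at 0.20 ± 0.07 higher (adjusted p = 0.12), and these 3 did not pass. The 3 were also the members whose 4 libraries at 4 weeks all lay above the 4 at 2 weeks on the TMM scale, which held for 10.6% of all genes. On TPM it held for 8 members and 27.9% of all genes. DESeq2 called Oas2 and Samd9l, both higher, where 8.14% of all genes passed. When any 1 library other than Oscar-/- DMM at 4 weeks was left out Oas2 no longer passed, with estimates of 0.47 to 0.67 and edgeR adjusted p of 0.052 to 0.12. Samd9l passed without WT DMM at 2 weeks (0.37) or without Oscar-/- DMM at 4 weeks (0.36). With limma on log2(TPM + 1), which changes the tool and the scale together, 8 members were higher at 4 weeks, namely Oas2, Oas3, Samd9l, Sp100, Cmpk2, Bst2, Stat2 and Rtp4, where 21.5% of all genes passed. On that scale the median of all genes was itself shifted by 0.23, and the median of the members was 0.32, or 0.090 above it. With TMM the members' median was 0.013 and that of all genes -0.020. Week goes with the sequencing lane in this design, and week and lane cannot be told apart.

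**Figure D2:**
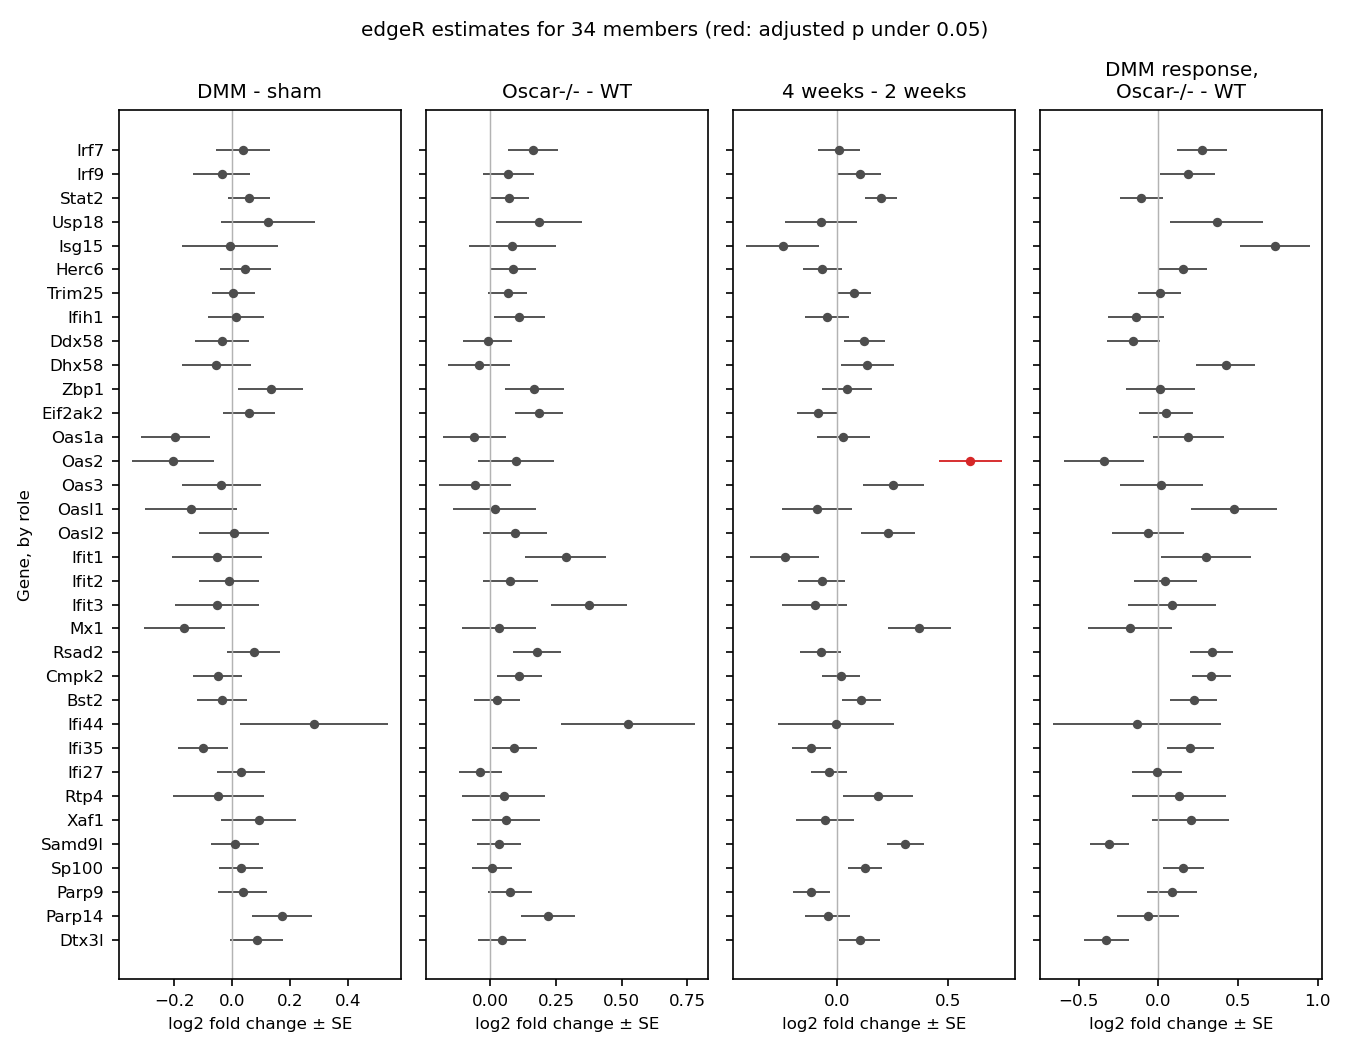
edgeR log2 fold changes of the 34 tested members for surgery, genotype, week and the genotype by surgery interaction, with bars of 1 SE and genes ordered by role. The axes differ between panels. Oas2 in the week panel, at 0.60, is the single estimate with an adjusted p under 0.05, and Isg15 in the interaction panel, at 0.73, is the largest that did not pass.

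The question closest to the study's aim was whether DMM changed these genes differently in the absence of Oscar. In the model with a genotype by surgery interaction 0 of 34 members passed with edgeR, and 5.24% of all genes did. At an unadjusted p under 0.05 there were 6 members, Isg15, Rsad2, Cmpk2 and Dhx58 with a higher and Samd9l and Dtx3l with a lower DMM response in Oscar-/-, and 24.2% of all genes. DESeq2 called 1 member, Isg15, where 3.64% of all genes passed, and gave no adjusted p for 3 members. Limma on log2(TPM + 1) called 0, where 2.79% of all genes passed. It had 3 members at an unadjusted p under 0.05, beside 19.1% of all genes. The median estimate was 0.085 for the members and -0.0080 for all genes with edgeR, and -0.20 and -0.26 with limma on TPM. Isg15 had the largest estimate with edgeR, 0.73 ± 0.22 on the log2 scale (adjusted p = 0.077), and was singled out after its values were seen. Its CPM (counts scaled by TMM to a common library size) at 2 weeks were 94.2 in sham-operated and 55.6 in DMM-operated WT joints, and 76.8 and 98.3 in the Oscar-/- counterparts. At 4 weeks they were 70.1, 69.6, 58.5 and 74.9. DMM stood above sham in Oscar-/- at both weeks, by 0.36 on the log2 scale each time, whereas in WT the log2(DMM/sham) was -0.76 at 2 weeks and -0.0095 at 4 weeks. Without the WT DMM library of 2 weeks the Isg15 estimate was 0.39 (adjusted p = 0.22). It passed without the WT sham library of 4 weeks (0.87, adjusted p = 0.027) and without the WT DMM library of 4 weeks (1.11, adjusted p = 0.042). Erythroid marker genes had estimates of like size, with a median of 0.61 over the 11 genes tested, and their part in the Isg15 value was not tested.

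**Figure D3:**
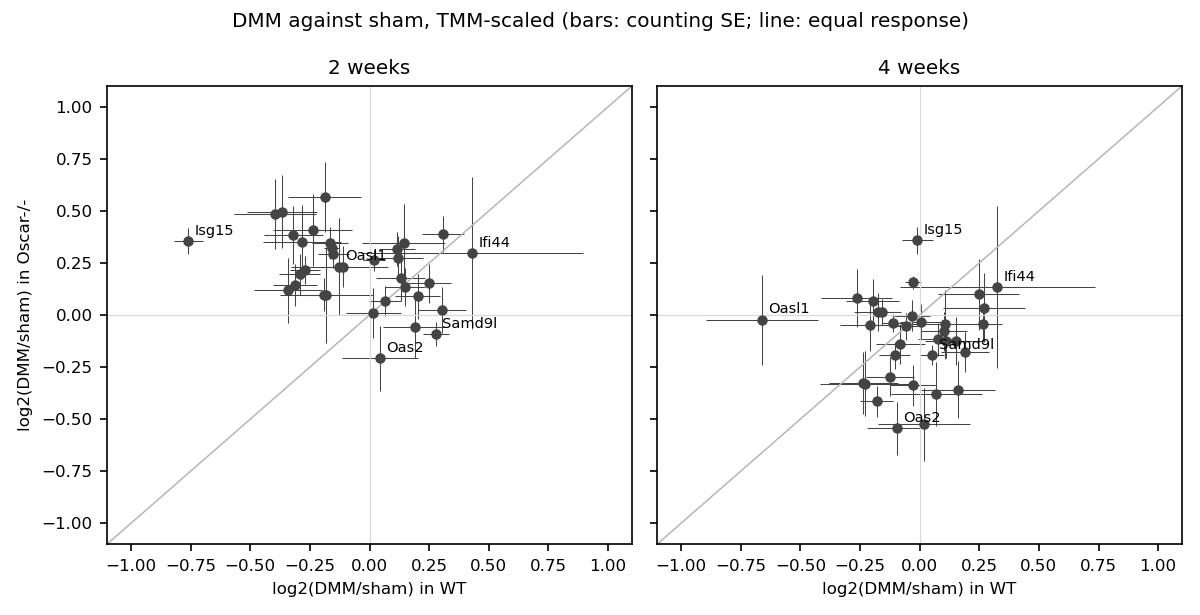
log2(DMM/sham) of each tested member in Oscar-/- against that in WT, from TMM-scaled CPM, at 2 and at 4 weeks. Bars are counting SE and the line marks an equal response. At 2 weeks 31 of 34 genes lie above 0 in Oscar-/- (54.6% of all genes) and 16 in WT (49.5%) on this scale. At 4 weeks 9 lie above 0 in Oscar-/- (48.05% of all genes) and 15 in WT (48.95%). On TPM the counts at 2 weeks are 29 in Oscar-/- (43.7% of all genes) and 30 in WT (85.65%).

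The response to DMM was then taken by genotype and week. On the TMM scale log2(DMM/sham) at 2 weeks was above 0 for 31 members in Oscar-/- (54.6% of all genes) and 16 in WT (49.5%). On TPM the counts at 2 weeks were 29 (43.7% of all genes) and 30 (85.65%), so the WT count was near the share of all genes. At 4 weeks they were 9 in Oscar-/- (48.05% of all genes) and 15 in WT (48.95%) with TMM, and 4 (24.2%) and 21 (58.97%) on TPM. The responses were compared as the difference DIF, log2(DMM/sham) in Oscar-/- minus that in WT. With 1 library per condition DIF has no test, and its counting SE had a median of 0.15 at 2 weeks and 0.14 at 4 weeks. On TPM the median DIF of the members was -0.15 at 2 weeks, beside -0.41 for all genes, and -0.29 at 4 weeks, beside -0.22 for all genes. With TMM scaling it was 0.28 at 2 weeks, beside -0.0076 for all genes, and -0.15 at 4 weeks, beside -0.019 for all genes. The sign at 2 weeks therefore flipped with the scaling. Relative to the median of all genes the members were higher at 2 weeks, by 0.25 on TPM and 0.29 with TMM, and lower at 4 weeks, by 0.074 on TPM and 0.13 with TMM. On the TMM scale 9 of the 34 had a positive DIF at both weeks, 7 a negative DIF at both weeks, and 18 opposite signs at the earlier and later week. On TPM 2 had a positive DIF at both weeks, 17 a negative DIF at both weeks and 15 opposite signs. By single week, DIF on TPM was below 0 for 19 members at 2 weeks (82.6% of all genes) and 30 at 4 weeks (75.0%). With TMM the counts were 9 (50.8% of all genes) and 23 (52.3%). Single libraries moved the members' median on TPM, for some of them across 0. With WT sham of 2 weeks exchanged for its counterpart from the other week the 2-week median was 0.56, with WT DMM exchanged it was -0.48, and with Oscar-/- sham exchanged it was -0.52. The 4-week median was -0.93 with WT sham exchanged, 0.11 with WT DMM exchanged and 0.083 with Oscar-/- sham exchanged.

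The 6 well-counted members with the largest absolute mean DIF on TPM were all negative there. On that scale DIF was below 0 for 82.6% of all genes at 2 weeks and 75.0% at 4 weeks. For Stat2 it was -0.75 ± 0.12 at the earlier and -0.60 ± 0.11 at the later week (counting SE). With TMM the same values were -0.015 and -0.19, so the Stat2 difference was found mostly on TPM. Samd9l had -0.78 ± 0.08 and -0.45 ± 0.07 on TPM and -0.37 and -0.25 with TMM. Dtx3l had -0.65 ± 0.15 and -0.57 ± 0.14 on TPM and -0.28 and -0.37 with TMM. Ifih1 had -0.41 ± 0.17 and -0.73 ± 0.17 on TPM and -0.0043 and -0.28 with TMM. Samd9l and Dtx3l thus had a negative DIF at both weeks on both scales. For Stat2 and Ifih1 the TMM values of the earlier week were smaller than their counting SE (0.12 and 0.17). Their sign there is therefore not resolved. A value above its counting SE does not settle a sign either, since that SE covers counting error only. Stat2, Samd9l, Dtx3l and Ifih1 were each closer to 0 with TMM than on TPM. They were picked on TPM, where most genes had a negative DIF, so a negative sign on that scale does not set them apart. Mx1 had -0.27 ± 0.30 and -0.77 ± 0.26 on TPM, and 0.28 and -0.54 with TMM. At the earlier week both Mx1 values were smaller than the counting SE. Herc6 had -0.68 ± 0.15 and -0.29 ± 0.15 on TPM, and 0.047 and 0.27 with TMM, the opposite sign. The Herc6 value of 0.047 was smaller than its counting SE of 0.15.

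Oscar-/- DMM at 2 weeks was the library in which the members stood highest on the TMM scale. There 30 of the 34 genes were above their own mean over the 8 libraries, where 53.7% of all genes were, and the median deviation was 0.16 beside 0.018 for all genes. Of all 35 members 16 had their highest TMM-scaled value in this library, a count taken for the members only. On TPM 17 of the 34 were above their mean there, where 26.3% of all genes were, the median deviation was 0.010 beside -0.12 for all genes, and 2 of the 35 had their highest level there. In WT DMM at 2 weeks 5 of the 34 were above their mean, where 48.7% of all genes were, with a median deviation of -0.16 beside -0.0043. On TPM it was 8 of the 34, where 46.2% of all genes were. In the other 6 libraries the median deviation of the members with TMM lay between -0.066 and 0.063. Usp18 shows the same order, with 10.1 and 7.66 TMM-scaled CPM in WT joints (sham, then DMM) and 9.98 and 14.0 in Oscar-/- joints of that week. Irf7 was at 48.4, 43.1, 48.8 and 62.1 in the same libraries, and Rsad2 at 272, 244, 274 and 342. Each of these 3 was lowest in WT DMM and highest in Oscar-/- DMM, and each pattern rests on single libraries of 1 lane. The 3 were picked after their values were seen. Of all 35 members 10 had their lowest TMM-scaled value in WT DMM at 2 weeks and 13 in WT sham at 2 weeks. The share of all genes was not taken for these counts of highest and lowest values. They therefore do not set the members apart. In WT at 2 weeks DMM stood above sham for 16 of the 34 on the TMM scale (49.5% of all genes).

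**Figure D4:**
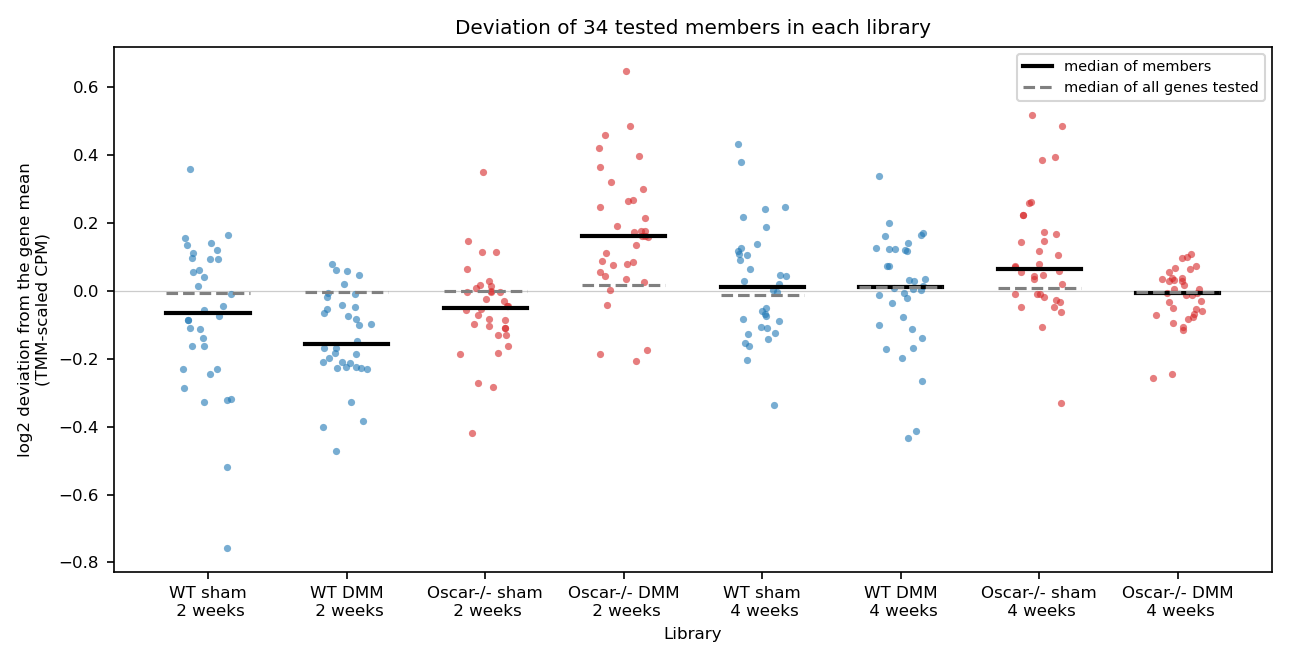
log2 deviation of each of the 34 tested members from its own mean over the 8 libraries, from TMM-scaled CPM. Points are genes, black bars the median of the members and dashed grey bars the median of all genes tested. The members' median is highest in Oscar-/- DMM at 2 weeks (0.16) and lowest in WT DMM at 2 weeks (-0.16), while that of all genes stays near 0.

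Marker genes of the cell types in the tissue moved as well, and their part in the results was not tested. The summed level of 12 B cell genes at 2 weeks was 294 TPM in sham-operated and 412 TPM in DMM-operated WT joints, and 305 and 382 TPM in the Oscar-/- counterparts. A list of 10 plasmacytoid dendritic cell genes, Bst2 among them, summed to 193, 218, 195 and 216 TPM in the same order, and 12 monocyte and macrophage genes to 832, 892, 861 and 813 TPM. The 12 neutrophil genes summed to 95263, 87230, 74430 and 67881 TPM. Over the weeks the 10 platelet and megakaryocyte genes differed most, at 121 to 182 TPM at 2 weeks and 551 to 917 TPM at 4 weeks, and all 10 were higher at 4 weeks with edgeR. Of the 12 B cell genes 8 were lower at 4 weeks, and of the 11 T and NK cell genes tested 4 were higher. In the interaction 8 of 12 fibroblast genes, 6 of 11 osteoblast and osteocyte genes, 6 of 12 endothelial genes and 3 of 14 chondrocyte genes had a lower DMM response in Oscar-/-, and 1 of 10 plasmacytoid dendritic cell genes did. A higher one was called for 5 of 10 platelet and megakaryocyte genes and 2 of 11 erythroid genes, Klf1 (0.74) among them. Of the 11 erythroid genes 8 had an unadjusted p under 0.05, and the hemoglobin genes Hba-a1 (0.81) and Hbb-bs (0.77) had estimates that did not pass.

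The rest of the pathway, in lists of related genes, was tested in the same way. Of 13 JAK-STAT and feedback genes 3 were higher at 4 weeks, Irf2bp2 (0.51), Irf1 (0.28) and Ptpn11 (0.27, log2 fold change). Among 21 genes of upstream sensing the kinase gene Ikbke was higher at 4 weeks (0.42). Rnaseh2a (0.60) and Rnaseh2b (0.59), subunits of the nuclease that removes RNA from DNA, had a higher DMM response in Oscar-/-.

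Genes of the interferon-gamma response and of antigen presentation were tested last. Of 17 interferon-gamma GTPase and chemokine genes tested, the GTPase gene Igtp was higher at 4 weeks (0.49). Of 18 antigen presentation genes, the class I gene H2-Q7 (0.49) and the peptide transporter gene Tap2 (0.29) were. Among 54 other interferon-stimulated genes tested 4 were higher and 2 lower at 4 weeks. That list also holds Gbp7 of the interferon-gamma list and Tap1 of the antigen presentation list. Ifitm1, a membrane gene that restricts viral entry, was higher by 0.69 and Cd274, which encodes PD-L1, by 0.78. Ifi27l2a fell by 0.47 and Ifi209 by 0.54 on the log2 scale. The exonuclease gene Isg20, at 228 to 306 TPM, was the 1 gene of that list with a higher DMM response in Oscar-/-, by 0.73 ± 0.18 (edgeR adjusted p = 0.039), beside the erythroid median of 0.61. None of the genes in these pathway lists passed the test for surgery or for genotype. Of all genes 7.94% were called for week and 5.24% for the interaction.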

How the data were processed

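The authors deposited RSEM expected counts and TPM for 52636 genes in each of 8 libraries. Tools listed in the submitters' processing notes are FastQC 0.11.8, STAR 2.6.0a and RSEM 1.2.17. The notes list a human build, but all identifiers are mouse and the study's methods give GRCm38. Replicates were not sequenced. In the expected counts that the authors deposited, shared reads are divided between genes. They were rounded for count tests, and 14 members had a count that was not whole to within 0.01. The TPM the authors deposited are relative to the transcripts of each library. Identifiers were matched to GENCODE M21, with 52403 matched and 21819 protein-coding.

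Tests were edgeR 4.0.16 quasi-likelihood tests with TMM scaling on 12538 genes, adjusted with the Benjamini-Hochberg method over all of them. Terms were week, surgery and genotype, or these with the genotype by surgery interaction. No condition repeats, so p-values measure the spread left after these terms. That spread includes any interaction that is not among the terms. DESeq2 1.42.0 and limma 3.58.1 (on log2(TPM + 1)) were alternatives, with R 4.3.3, Python 3.11.15 and pandas 2.3.3. The edgeR test was also run on counts simulated with the spread fitted to these same libraries. Such counts cannot show how it behaves without replicates or where lane goes with week. DIF was taken on TPM without a pseudocount, with counting SE from expected counts, and covers counting error only. Named in full were members past the threshold and the 6 of largest absolute mean DIF with at least 50 counts in every library, then up to 4 genes per pathway list. Isg15, Usp18, Irf7, Rsad2 and Ifit3 were given in full after their values were seen. The members and lists were chosen with earlier results of these data known. Sequences are from RefSeq.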

Additional observations from a re-analysis of the deposited data

How the results depend on the processing

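No paired analysis was possible because the labels give no replicate numbers to tie libraries together. Week was a term of the fits. The counts of members called for surgery and genotype stayed at 0 under every alternative run, which were other size factors, no hemoglobin genes, other filters, other tools, no week term and leaving out each library. The count for week was 1 with edgeR, 2 with DESeq2 and 8 with limma on log2(TPM + 1), and 0 to 2 when a library was left out. Without WT DMM at 2 weeks the 2 were Isg15, lower, and Samd9l, higher. The count for the interaction was 0 with edgeR, 1 with DESeq2 and 1 without a filter on genes (Isg15 in both), and 0 to 2 when a library was left out. Without WT sham at 4 weeks the 2 were Isg15 and Samd9l. The median DIF at 2 weeks was -0.15 on TPM, 0.28 with TMM-scaled CPM, 0.044 on TPM without the hemoglobin genes and 0.050 with the mean of both shams. At 4 weeks it was -0.29 on TPM, -0.15, -0.097 and -0.45 in the same order. When 1 library was exchanged for its counterpart from the other week, it ranged from -0.52 to 0.56 at 2 weeks and from -0.93 to 0.11 at 4 weeks. The causes of these shifts were not tested. Depth limits Mx2 and Ifi44, the members with the fewest counts.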
